A study of Mus musculus with 12 samples.

Results

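The genes described here are 10 members of the p53 and FOXO pathways, namely Trp53, Mdm2, Foxo1, Foxo3, Foxo4, Sesn1, Sesn2, Gadd45a, Ccng1 and Bcl6, in mouse brown adipose tissue. Their probes were taken by gene symbol from the platform annotation, which gave 16 probes for 9 of the 10 genes, out of 25697 probes and 16593 named genes on the array. The expression of Trp53 was not analysed here. Of the 16 probes 12 passed the filter on dim signals (6 or more of the 12 arrays had to show a detection p below 0.05), and they measured 7 genes: Mdm2, Foxo1, Sesn1, Sesn2, Gadd45a, Ccng1 and Bcl6. The probes of Foxo3 and Foxo4 were detected on 0 of 12 arrays.

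Total RNA of brown fat was hybridised to Illumina expression arrays in 2 groups of 6 samples, both on a C57Bl/6N background and both aged 3 months per the labels. One group was wild type (WT) and the other carried a SIRT1 transgene, written SIRT1Tg/Tg in the labels and called SIRT1tg here. The labels give no promoter for the transgene and do not say whether each sample is a separate animal. The spread behind each p-value is therefore that between samples, which may be technical, and precision is set by how many arrays there are. The array columns carry a number that forms a low and a high range with 3 arrays of each group in each. Arrays are named below by genotype and by rank of this column number (WT 1 is the lowest of the WT arrays), so ranks 1 to 3 are low range. The column names do not carry the labels' replicate numbers, but by their values all 12 arrays were closest to the processed column whose replicate number equals their rank.

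SIRT1 removes acetyl groups from proteins at the cost of NAD+, and p53 (the product of Trp53) and the FOXO transcription factors are among its best known substrates. p53 is a transcription factor of the DNA damage response that is held low by the ubiquitin ligase MDM2, and it switches on genes of cell cycle arrest, repair and stress defence. FOXO factors act when insulin signalling is low, since the kinase AKT phosphorylates them and sends them out of the nucleus, and in adipose tissue FOXO1 is known as a brake on adipocyte differentiation. Both SIRT1 actions are on proteins, whereas the arrays measure transcripts, and the comparison asks which transcripts of these factors, their regulators and their target genes differ when SIRT1 is overexpressed.

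The sequences before the start sites of 3 members are shown because Gadd45a and Sesn1 had the smallest p-values among the members and the Mdm2 window held both a p53 half-site and a FOXO core. They are the 250 bases upstream of a RefSeq start (GRCm38.p6), 5′ to 3′ on the strand of the gene, with motif matches in capitals.
Gadd45a, chr6:67037408-67037657, minus strand: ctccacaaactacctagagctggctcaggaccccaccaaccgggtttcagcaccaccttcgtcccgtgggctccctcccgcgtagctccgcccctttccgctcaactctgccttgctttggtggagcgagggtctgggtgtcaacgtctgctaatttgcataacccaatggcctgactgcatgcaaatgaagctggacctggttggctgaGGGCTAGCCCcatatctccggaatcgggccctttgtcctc
Sesn1, chr10:41887189-41887438, plus strand: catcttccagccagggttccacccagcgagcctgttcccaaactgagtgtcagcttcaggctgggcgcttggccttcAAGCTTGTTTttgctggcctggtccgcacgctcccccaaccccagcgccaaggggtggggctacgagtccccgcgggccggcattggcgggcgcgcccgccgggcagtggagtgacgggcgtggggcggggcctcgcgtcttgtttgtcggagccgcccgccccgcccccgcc
Mdm2, chr10:117710759-117711008, minus strand: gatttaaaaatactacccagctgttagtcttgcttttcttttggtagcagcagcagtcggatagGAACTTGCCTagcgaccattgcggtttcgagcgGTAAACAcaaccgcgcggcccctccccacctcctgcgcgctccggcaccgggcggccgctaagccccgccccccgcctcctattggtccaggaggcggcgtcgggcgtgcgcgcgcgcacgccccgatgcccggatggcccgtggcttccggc
Windows of 250 bases before and 50 bases after a start were available for 9 of the 10 genes, 11 windows in all because Sesn1 and Bcl6 have 2 each. They were searched on both strands for the p53 half-site, a motif that reads alike on both strands, for the FOXO core TGTTTAC and for TGTTTTG, the core of the insulin response element; matches did not overlap. The half-site matched in 5 of the 11 windows, against 8.36% of the 32851 windows of all genes. Counted from the start site, its first base lies at -40 for Gadd45a, at -173 for the second start of Sesn1 and at -186 for Mdm2, and in windows not shown at -185 for Ccng1 and at -75 for Trp53. The FOXO core matched in 2 windows, against 3.65% of all windows, at -153 for Mdm2 (on the opposite strand) and at 23 for the first start of Sesn1. TGTTTTG matched in 0 of the 11 windows, against 6.28% of all. A match is a description of letters and not a binding site, and the p53 elements known for Mdm2 and Gadd45a lie within introns, outside these windows.

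In SIRT1tg brown fat no member passed the test. None of the 7 measured genes differed from WT at an adjusted p under 0.05, where 12 of 8035 genes, or 0.149%, did so (limma, Benjamini-Hochberg over all genes tested; 0.112% higher and 0.0373% lower in SIRT1tg). At an unadjusted p under 0.05 there were 2 members, Gadd45a and Sesn1, both lower in SIRT1tg, against 15.2% of all genes. The groups did not separate for any member, against 1.32% of all genes. Of the 7 genes 4 were higher and 3 lower, with a median log2 fold change of 0.09 against -0.01 over all genes tested. Over the 12 detected probes the split was 4 higher and 8 lower and the median -0.03, so neither the split nor the sign of the median holds across the choice of probe. Signals are normalised log2 values and fold changes are SIRT1tg minus WT on that scale. An offset of 16 was added before the log, which understates the fold of a dim gene. Sirt1 itself, the check of the labels, read 6.88 ± 0.32 over 6 WT arrays and 8.26 ± 0.21 over 6 SIRT1tg arrays (SD), and all 6 SIRT1tg arrays stood above the highest WT array (limma adjusted p = 0.00049).

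**Figure D1:**
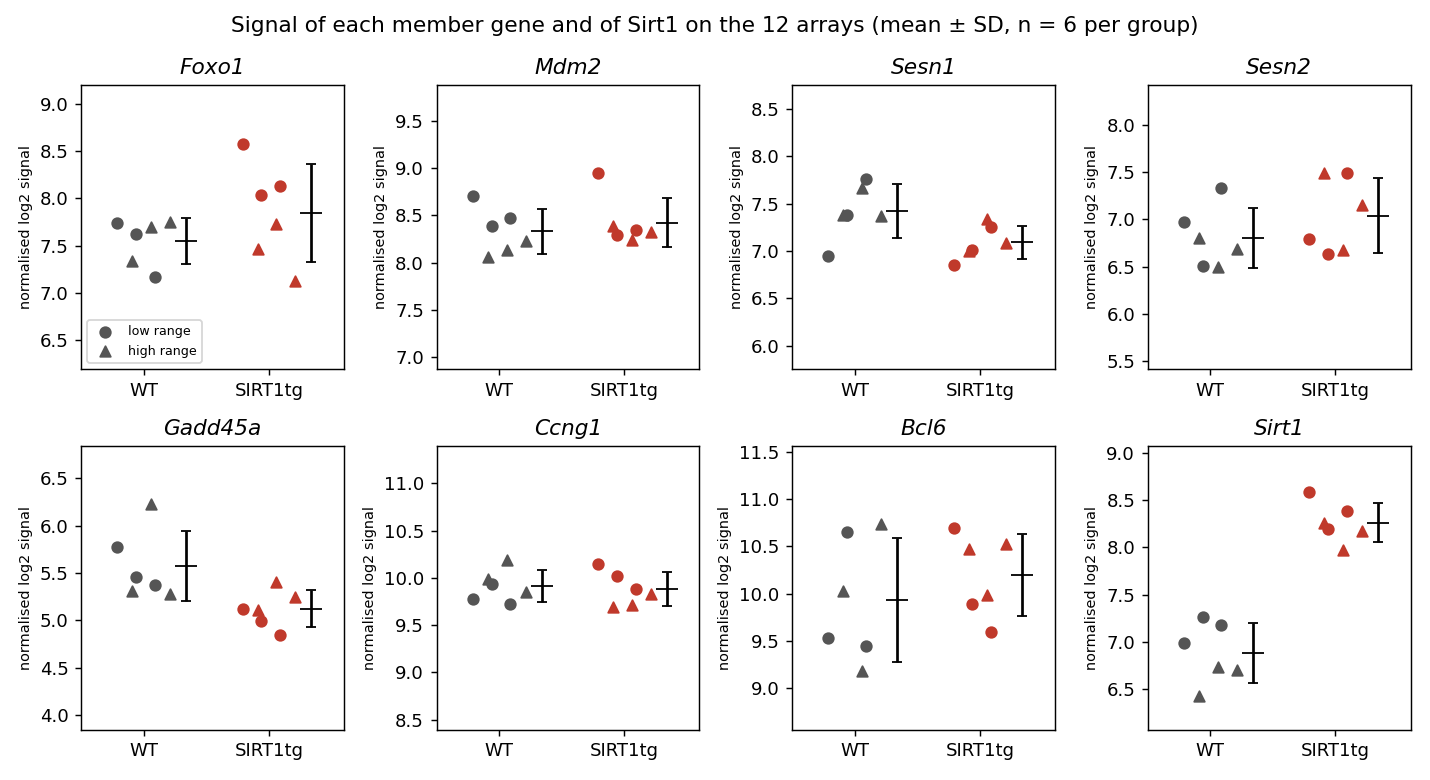
Normalised log2 signal (y axis, an equal span of log2 units in each panel) of the 7 measured member genes and of Sirt1, by genotype. Each point is an array (circles, low number range; triangles, high number range) and the bars are mean ± SD of 6 arrays; the groups overlap for each member gene and are apart for Sirt1.

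Among the FOXO transcription factors, Foxo1, which drives gluconeogenic and atrophy genes and restrains adipogenesis, was the one measured. Its signal lay between 7.17 and 7.74 on the WT arrays (median 7.66) and between 7.12 and 8.57 on the SIRT1tg arrays (median 7.88). The SIRT1tg arrays spanned the whole WT range, with 3 above the highest and 1 below the lowest WT array. The log2 fold change was 0.29 ± 0.20 (SE), or 1.22-fold with a 95% interval of 0.905 to 1.65 (limma adjusted p = 0.563). The SIRT1tg samples of Foxo1 spread 2.73-fold from lowest to highest and the WT samples 1.49-fold, and its SD within groups exceeded that of 92.3% of all genes. In the table of processed signals, which the authors had normalised, Foxo1 read 192 ± 32.7 in WT and 249 ± 93.3 for SIRT1tg (SD, n = 6 each).

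Within the number ranges Foxo1 ran in opposite directions. All 3 low-range SIRT1tg arrays read above all WT arrays (8.57, 8.04 and 8.12), and Foxo1 was 0.74 higher than WT on the log2 scale in that range. In the high range SIRT1tg read 7.47, 7.73 and 7.12 and the difference was -0.15. The test of the difference between the ranges gave an unadjusted p of 0.00886 and an adjusted p of 0.579 over all genes (limma interaction term, 3 arrays per group and range), where 7.37% of all genes had an unadjusted p under 0.05. Leaving out SIRT1tg 1 brought the pooled difference of Foxo1 down to 0.14. On the array of that sample Foxo1 was at its highest, as were the glucocorticoid-responsive genes, whose mean centred signal there was 0.64 against -0.37 to 0.46 on the other 11 arrays. On SIRT1tg 1 the endothelial genes were also highest of the 12 arrays (0.33), and the red cell genes (-0.83) and genes of dividing cells (-0.28) were lowest. Over the SIRT1tg arrays the 3 red cell genes measured ran opposite to Foxo1, at -0.83, -0.54 and -0.12 in the low range and 0.73, 0.21 and 0.97 in the high range. Other lists split by range on these arrays too. The glucocorticoid-responsive genes read 0.64, 0.07 and 0.46 in the low range and -0.05, -0.03 and -0.17 in the high range. The endothelial genes read 0.33, 0.10 and 0.30, and then -0.03, 0.01 and 0.005. Both lists stood higher in the low range, as Foxo1 did. The WT arrays did not repeat the red cell pattern. On WT 6 the red cell genes (0.19) and Foxo1 (7.74) were both highest among the WT arrays. On WT 3 both were low (-0.30 and 7.17), while WT 1 went the other way (-0.31 and 7.74). The part of these gene sets in the result was not tested.

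Foxo3 and Foxo4, the further FOXO genes of this group, read at background. The raw signals of Foxo3 lay between 91.4 and 108 and its lowest detection p on any array was 0.147. For Foxo4 the raw signals lay between 91.0 and 105, with a lowest detection p of 0.154. The array medians over all probes were 98.95 to 108.6, so neither probe gave a measurement of its transcript in either genotype.

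Mdm2, the ubiquitin ligase that restrains p53 and is itself a p53 target, did not differ between the genotypes beyond the spread of the samples. It read 8.06 to 8.71 in WT (median 8.31) and 8.24 to 8.95 in SIRT1tg (median 8.33), and 1 SIRT1tg array stood above the highest WT array. The fold was 1.07 with a 95% interval of 0.870 to 1.31 (log2 fold change 0.09 ± 0.14, SE; limma adjusted p = 0.808). A further detected probe of Mdm2 gave -0.02 ± 0.15 (SE), and the remaining one was detected on 0 of 12 arrays. The 2 detected probes ran together over the 12 arrays (Pearson r = 0.796, Spearman rho = 0.599, given as a description of probes that share the arrays). With SIRT1tg 1 left out the difference turned to -0.01.

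Gadd45a, a stress sensor of growth arrest and DNA repair that both p53 and FOXO factors can induce, was lower in SIRT1tg without passing the test. Its signal was 5.28 to 6.23 in WT (median 5.41) and 4.85 to 5.41 in SIRT1tg (median 5.11). All 6 SIRT1tg arrays lay below the WT median and 5 lay below the lowest WT array; the 1 that overlapped was SIRT1tg 5. The log2 fold change was -0.45 ± 0.16 (SE), 1.36-fold lower, with an adjusted p of 0.184 in limma and an exact two-sided permutation p of 0.013 for this gene alone. Of all genes 94.2% had a change of that size or smaller, and 25.3% had a mean signal as low or lower.

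The further detected probe of Gadd45a gave a like difference. It was lower by -0.42 ± 0.15 (SE; adjusted p = 0.210 over the 10771 detected probes, limma), from 5.16 ± 0.27 in WT to 4.74 ± 0.31 for SIRT1tg (SD, n = 6 each), and it was detected on 6 of 6 WT and 3 of 6 SIRT1tg arrays. The 2 probes correlated over the 12 arrays with a Pearson r of 0.826 and a Spearman rho of 0.762, given as a description of probes that share the arrays. The 6 WT arrays alone were enough for the further probe to meet the filter. Its difference is therefore no separate support for that of the first probe. In the processed signals the brighter probe read 38.5 ± 15.7 in WT and 22.7 ± 5.54 in SIRT1tg, and the dimmer 24.1 ± 7.80 and 12.9 ± 7.55 (SD, n = 6 each). These values lie near the background. WT 5, the highest array for Gadd45a at 6.23, also had the highest skeletal muscle signal among the WT arrays. Without WT 5 the difference was -0.32. It was also -0.32 once the muscle score entered the fit as a covariate (limma adjusted p = 0.273). Without the 5 arrays above the mean muscle signal it was -0.26.

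Sesn1 and Sesn2 encode sestrins, stress proteins that restrain mTORC1; Sesn1 is a target of p53 and FOXO factors, and Sesn2 is also induced by p53 and by the amino acid response. Sesn1 read 6.95 to 7.76 in WT (median 7.38) and 6.86 to 7.34 in SIRT1tg (median 7.04). All 6 SIRT1tg arrays lay below the WT median, but WT 1, at 6.95, lay below 5 of them. The log2 fold change was -0.33 ± 0.13 (SE), 1.26-fold lower, with an adjusted p of 0.246 (limma) and an exact two-sided permutation p of 0.0455. Leaving out WT 1 gave the lowest adjusted p of any member with an array left out, at 0.0758 (log2 fold change -0.42). The difference of Sesn1 was almost the same within both number ranges, at -0.32 and -0.33. A further Sesn1 probe was detected on 3 of 12 arrays and was not tested, and the annotation does not tell which of the 2 start sites the measured probe belongs to.

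Sesn2 stood on the other side of 0. It read 6.50 to 7.33 in WT (median 6.75) and 6.63 to 7.49 in SIRT1tg (median 6.98), with 2 SIRT1tg arrays above the highest WT array and 4 among the WT values. The log2 fold change was 0.24 ± 0.18 (SE; limma adjusted p = 0.604), a fold of 1.18 with a 95% interval of 0.900 to 1.55. Its dimmer detected probe gave -0.03 ± 0.13 (SE) and followed the brighter one loosely over the 12 arrays (Pearson r = 0.411, Spearman rho = 0.392). The difference was 0.04 in the low and 0.44 in the high range, and 0.13 with the muscle signal as a covariate.

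Ccng1, cyclin G1, a classical p53 target that binds a phosphatase acting on MDM2, was the member with the smallest spread. It read 9.73 to 10.19 in WT (median 9.90) and 9.70 to 10.15 in SIRT1tg (median 9.85). The fold was 0.978 with a 95% interval of 0.837 to 1.14 (log2 fold change -0.03 ± 0.11, SE; limma adjusted p = 0.926). Its 3 probes, all detected on 12 of 12 arrays, gave -0.03, -0.07 and -0.00. All 12 arrays lay within a 1.41-fold span, and 28.6% of all genes had an SD within groups as small or smaller. Within the ranges Ccng1 stood at 0.20 (low) and -0.27 (high), and the test of that difference gave an unadjusted p of 0.0189 and an adjusted p of 0.624 (limma). Its probes differed in this: another gave 0.12 and -0.26, and the last 0.01 and -0.02. Over the 12 arrays the last probe correlated with the first at a Pearson r of 0.012.

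Bcl6, a transcriptional repressor that is a FOXO target and is known to act on lipid metabolism and germinal centre B cells, varied most among the members. It read 9.18 to 10.74 in WT (median 9.78) and 9.60 to 10.70 in SIRT1tg (median 10.23), with every SIRT1tg array inside the WT range. The WT samples of Bcl6 spread 2.93-fold, and its SD within groups of 0.55 exceeded that of 97.2% of all genes, for which the median SD was 0.21. The log2 fold change was 0.26 ± 0.27 (SE; limma adjusted p = 0.710), with a 95% interval of -0.32 to 0.85, and it was 0.11 without WT 5 and 0.42 without WT 6. In the processed signals Bcl6 read 1113 ± 489 in WT and 1272 ± 350 for SIRT1tg (SD, n = 6 each).

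**Figure D2:**
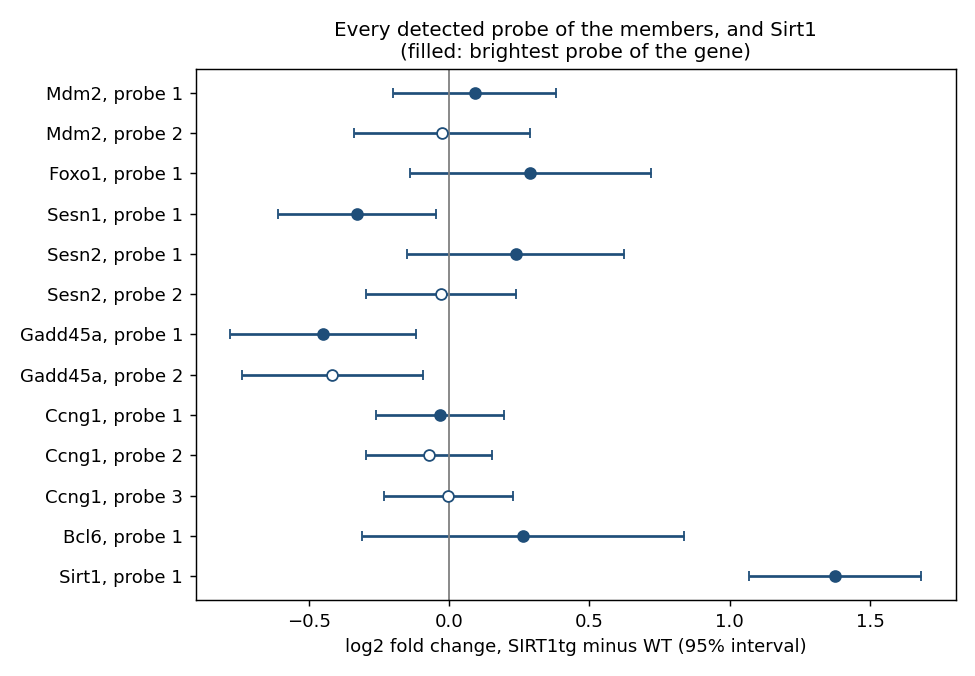
Log2 fold change (x axis, SIRT1tg minus WT) with its 95% interval from limma for the 12 detected probes of the member genes and the Sirt1 probe. Filled points are the brightest probe of a gene; both Gadd45a probes lie below 0 at -0.45 and -0.42, the 3 Ccng1 probes cluster at 0, and the Sirt1 probe stands apart at 1.37.

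With the range as a block, 84 of 8035 genes (1.05%) and 0 of the 7 members passed, with adjusted p from 0.145 (Gadd45a) to 0.911 (Ccng1). The range itself separated 5.03% of all genes, and for the members its adjusted p lay between 0.136 (Mdm2) and 0.864 (Ccng1). Gadd45a (-0.55 and -0.35), Sesn1, Sesn2, Bcl6 (0.19 and 0.34) and Mdm2 (0.01 and 0.18) kept their sign in both ranges, low first, and Foxo1 and Ccng1 did not. These are values of the probe that stands for each gene, and the further probes of Mdm2 (0.08 and -0.13) and Sesn2 (0.13 and -0.18) did not keep theirs. The genotype by range test passed for 0.0124% of all genes and for 0 of the 7 members.

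**Figure D3:**
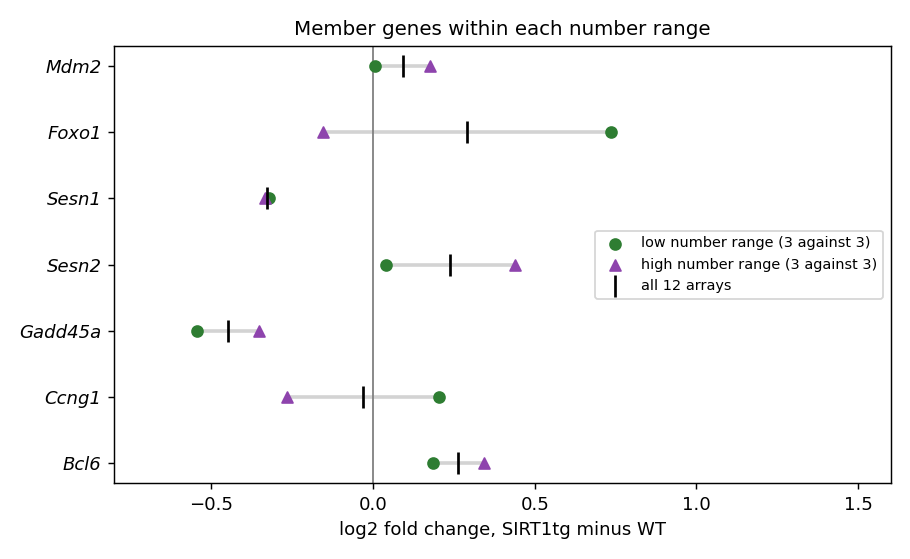
Log2 fold change (x axis, SIRT1tg minus WT) of the 7 measured member genes within the low number range (circles), the high number range (triangles) and over all 12 arrays (ticks). Sesn1 gave -0.32 and -0.33 in the ranges, whereas Foxo1 (0.74 and -0.15) and Ccng1 (0.20 and -0.27) lay on both sides of 0; no error is drawn, since each value rests on 3 arrays against 3.

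The wider pathway lists are given next by counts. With 0.149% of all genes past the threshold, a count of 0 in a list of this size is what the background gives and says nothing about the list. Of 20 measured p53 target genes 0 passed over all genes and 6 had an unadjusted p under 0.05 (15.2% of all genes did), with 8 higher and 12 lower and a median log2 fold change of -0.05. Cdkn1a, the cell cycle inhibitor p21 and the best known p53 target, which FOXO factors also induce, was the p53 target farthest from 0. It read 9.05 to 10.41 in WT (median 9.63) and 10.26 to 11.39 in SIRT1tg (median 10.60), with 5 of 6 SIRT1tg arrays above the highest WT array. This is a 2.11-fold difference (log2 fold change 1.08 ± 0.26, SE; limma adjusted p = 0.0771), and leaving out single arrays gave 0.95 to 1.22. Its other detected probes gave 1.16 and 0.97, so all 3 Cdkn1a probes stood higher in SIRT1tg. Cdkn1a was 1.40 higher in the low and 0.75 higher in the high range. Its adjusted p passed the threshold with array weights, where 163 of all 8035 genes passed against 12 in the main fit. That was 1 of 17 other gene-level settings, and Cdkn1a passed with 0 of 12 arrays left out.

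Other p53 targets lay on both sides. Dram1, a lysosomal protein of autophagy (-0.58), Pml, the organiser of nuclear bodies (-0.29), and Apaf1, the apoptosome scaffold (-0.33), were lower, and the death receptor gene Tnfrsf10b (0.24) and Ei24 (0.38) were higher, with adjusted p from 0.154 to 0.248 (limma). Among 11 measured p53 regulators 0 passed and the median was -0.01. The ubiquitin ligase gene Rchy1 stood at 0.46 (adjusted p = 0.123, limma) and the DNA damage kinase gene Atm at -0.26 (0.251), while Cop1, another ubiquitin ligase of p53, stood at 0.28 (0.396).

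On the FOXO side 0 of 18 measured target genes passed, with 9 higher and 9 lower and a median of 0.00. An unadjusted p under 0.05 (limma) was found for 4 of the 18, all higher in SIRT1tg, against 15.2% of all genes. The largest differences were those of the gluconeogenic and glyceroneogenic enzyme gene Pck1 (0.83; limma adjusted p = 0.133), the transcription factor gene Klf4 (0.79; 0.182) and the autophagosome gene Map1lc3b (0.55; 0.145). Klf4 was past the threshold without WT 1 (1.01, limma adjusted p = 0.0388), 1 of 12 arrays left out, and in 1 of 17 other gene-level settings. Pck1 was past it with array weights (0.97, limma adjusted p = 0.0417), 1 of 17 such settings, and with 0 of 12 arrays left out. Of all 8035 genes 151 passed without WT 1 and 163 with array weights, against 12 in the main fit. Klf4 was 0.59 without SIRT1tg 1, and its other detected probes gave 0.50 and 0.61. In the other direction stood the muscle atrophy ligase gene Fbxo32 (-0.37; 0.492), the proapoptotic gene Bcl2l11 (-0.23; 0.476) and the peroxiredoxin gene Prdx3 (-0.20; 0.382). Of the 14 measured FOXO regulators 0 passed, with a median of 0.01. Sgk1, a kinase that inhibits FOXO factors and is itself induced by glucocorticoids, was the regulator farthest from 0. It read 9.52 to 10.71 in WT (median 10.06) and 10.52 to 11.45 in SIRT1tg (median 10.81), with 4 SIRT1tg arrays above the highest WT array. The fold of Sgk1 was 1.84 (log2 fold change 0.88 ± 0.20, SE, limma adjusted p = 0.0627). Sgk1 was past the threshold once the number range was a blocking term (adjusted p = 0.0432), with array weights (0.0352) and without WT 1 (0.0177). These are 2 of 17 other gene-level settings and 1 of 12 arrays left out. Of all genes 84 passed with the block, against 12 in the main fit.

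Among the paralogues of the members 4 of 9 were measured and 0 passed. Ccng2, cyclin G2, a FOXO target unlike Ccng1, read 7.10 to 7.94 in WT (median 7.45) and 7.87 to 8.40 in SIRT1tg (median 8.18). In 5 of 6 SIRT1tg arrays it stood above the highest WT array. The difference was 1.62-fold (log2 fold change 0.69 ± 0.14, SE; limma adjusted p = 0.0543) and nearly equal in both ranges, at 0.68 and 0.71, and Ccng2 was past the threshold once the range was a blocking term (adjusted p = 0.0432). It was also past it with array weights (0.0337), a robust trended prior (0.0495) or the muscle covariate (0.0444), and without WT 1 (0.0312) or WT 4 (0.0151). These are 4 of 17 other gene-level settings and 2 of 12 arrays left out. In those 4 settings 24 to 163 of all 8035 genes passed, against 12 in the main fit, and 151 passed without WT 1. Gadd45b stood at -0.62 (adjusted p = 0.373) and Gadd45g at 0.21 (0.645), against -0.45 for Gadd45a (limma). Bcl6b stood at 0.20 (0.628).

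Of 19 measured genes listed as other substrates of SIRT1, 0 passed, and their median was -0.01. Whether the product of each listed gene is a SIRT1 substrate was not tested. The clock gene Per2 (1.05; limma adjusted p = 0.138) and the coactivator gene Ppargc1a (0.96; 0.235) were highest, with Ppargc1a at 0.59 once SIRT1tg 1 was left out, and the repair genes Xrcc6 (0.35; 0.228) and Xpa (-0.33; 0.341) lay on both sides. Several genes stand on more than 1 list, Sgk1 among the FOXO regulators and the glucocorticoid-responsive genes, and Ppargc1a among the substrates and the brown adipocyte genes.

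**Figure D4:**
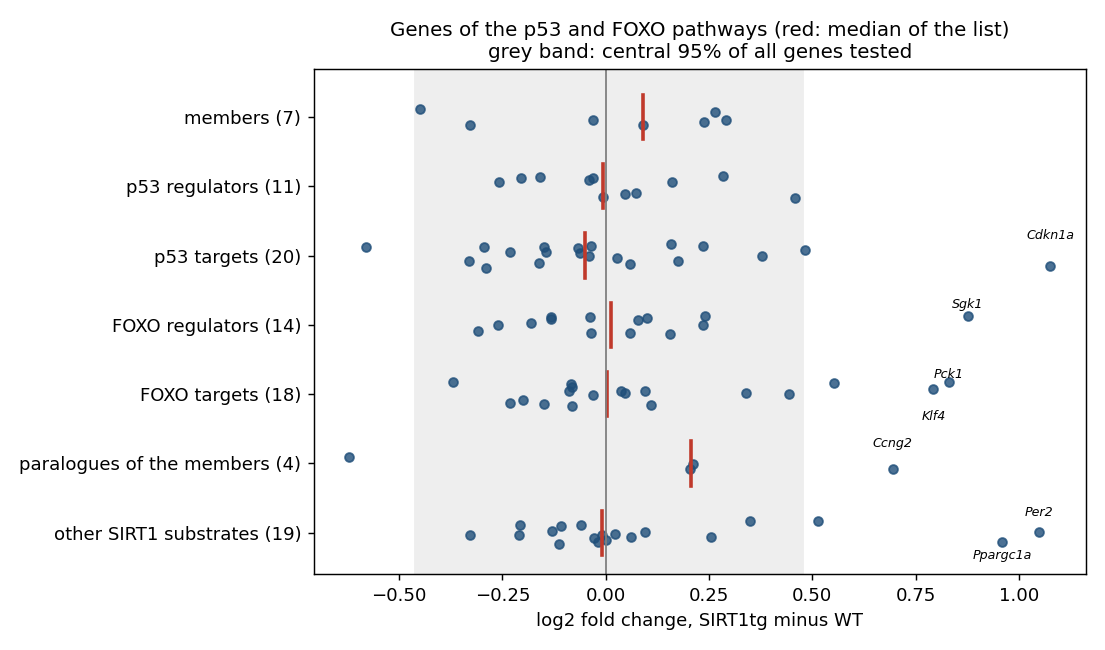
Log2 fold change (x axis, SIRT1tg minus WT) of each measured gene on the lists of the p53 and FOXO pathways, with the number of genes in brackets, the list median as a red line and the central 95% of all genes tested as a grey band from -0.46 to 0.48. The medians of the lists lie near 0, except those of the 7 members (0.09) and the 4 paralogues (0.21), and the genes named on the plot are those farthest from 0.

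The between-sample pattern most like each member was sought over the 8034 other genes by Pearson correlation over the 12 arrays, as a measure of likeness without a test. Sesn1 ran closest to C1qtnf1 (r = 0.941, rho = 0.902) and to Chac1 (r = 0.930, rho = 0.888), a glutathione-degrading enzyme of the amino acid response that was 1.09 lower in SIRT1tg on the log2 scale without passing (limma adjusted p = 0.196). Gadd45a ran closest to Phgdh, the first enzyme of serine synthesis (r = 0.902, and 0.688 without the 2 arrays farthest from the median of Phgdh), and to the cyclin gene Ccnd2 (r = 0.892). Mdm2 ran closest to the chaperone gene Dnajb1 (r = 0.950) and to Hlx (r = 0.945), with 0.743 and 0.842 without 2 arrays. Foxo1 ran closest to Amotl2 (r = 0.888) and the endothelial gene Plvap (r = 0.886), with 0.722 and 0.718 without 2 arrays. Sesn2 ran closest to the proline dehydrogenase gene Prodh (r = 0.877) and to Cd82 (r = 0.847). For Ccng1 these were Ccdc82 (r = 0.893) and Scrib (r = 0.887), and for Bcl6 Ethe1 (r = 0.909) and Gdf9 (r = 0.903). Each is the highest of 8034 values and so high by selection.

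Pairs of members ran together only loosely. Over the 21 pairs Pearson's r lay between -0.57 (Sesn2 with Ccng1) and 0.52 (Foxo1 with Ccng1), given as a description of signals that share arrays and genotype. Sesn1 and Gadd45a, the members with an unadjusted p under 0.05, had an r of 0.44, and Sesn1 and Sesn2 one of -0.14.

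Each array detected 11221 to 12108 probes, and pairs of arrays correlated at r = 0.959 to 0.990 over the genes tested. Of the tissue's own markers, 13 of 15 brown adipocyte genes were measured, with Lpl (13.93 and 13.89 in WT and SIRT1tg) and Cidea (13.72 and 13.73) brightest. Marker lists of other cell types held 0 genes past the test, as the background of 0.149% gives. Mean levels of fibroblast and matrix, macrophage, endothelial and dividing-cell genes nevertheless differed in range between the genotypes. Those of muscle and lymphocyte genes differed little in range. An unadjusted p under 0.05 (limma) was found for 73.3% of fibroblast and matrix genes and 62.5% of genes of dividing cells. It was found for 60% of macrophage and 41.2% of endothelial genes, against 15.2% of all genes. For lymphocyte genes the share was 20%, and for muscle and red cell genes it was 0%. The mean centred signal of 15 fibroblast and matrix genes was -0.09 to 0.62 in WT and -0.39 to -0.05 in SIRT1tg, and that of 15 macrophage genes -0.27 to 0.95 and -0.51 to 0.20. Their brightest genes were Dcn (11.55 and 11.18) and Sparc (11.33 and 11.02), and Cd74 (10.26 and 9.84) and Laptm5 (9.82 and 9.25), WT first. The 17 endothelial genes ran from -0.34 to 0.09 in WT and from -0.03 to 0.33 in SIRT1tg, with Egfl7 (10.67 and 10.63) and Aqp1 (10.26 and 10.58) brightest. The 8 genes of dividing cells, led by Mcm4 and Rrm1, ran from -0.00 to 0.24 and from -0.28 to -0.03. The 19 muscle genes ran from -1.59 to 2.27 and from -1.52 to 2.62, above their mean on 4 WT arrays and 1 SIRT1tg array. Myl1 and Car3 were the brightest of them but varied little, with an SD of 0.26 to 0.52 within a group. Elsewhere on the muscle list that SD reached 3.27. The 10 immediate early genes, led by Dusp1 and Egr1, ran from -0.59 to 1.11 and from -0.67 to 0.42, while only 5 lymphocyte genes and 3 red cell genes were measured. The 11 glucocorticoid-responsive genes, led by Mt1 and Pdk4, lay between -0.37 and 0.38 in WT and between -0.17 and 0.64 in SIRT1tg. Of these genes 9 were higher in SIRT1tg, and 45.5% had an unadjusted p under 0.05 (limma), Mt1 and Pdk4 not among them. For the immediate early genes that share was 20%. The part of these shifts in the values of the member genes was not tested, and fewer cells of a type and less RNA per cell cannot be told apart in such samples. No member passed with or without the muscle score as a covariate, so that count does not show the part of muscle. With the covariate the log2 fold changes were -0.32 (Gadd45a), -0.31 (Sesn1), 0.25 (Foxo1), 0.20 (Bcl6), 0.13 (Sesn2), 0.04 (Mdm2) and -0.02 (Ccng1). Each of the 7 was nearer to 0 than without it. The slope on the muscle signal passed for 0 of the 7 members, against 0.485% of all genes.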

How the data were processed

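Bead signals of 12 arrays were deposited by the authors as a non-normalized table of intensity values, one mean signal per probe and array, with a detection p-value per probe, per the file headers. GenomeStudio is named in the submitters' processing notes, with no version. The deposited series table holds further processed intensity values by the authors, of which 26.1% lie at or below 0. Its columns share an upper quartile of 57.7 and have medians of 5.70 to 5.76, so it is linear and scaled between arrays; how it was normalized and centred is not stated in the labels. Names of the signal columns give the genotype and a number but no replicate; by value, 12 of 12 arrays correlated best with the processed column whose replicate number is their rank (Spearman rho of at least 0.998, and at most 0.980 with any other column). Raw medians were 98.95 to 108.6.

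Background correction, an offset of 16 and quantile normalization used neqc (limma 3.58.1, R 4.3.3). The filter asked for a detection p below 0.05 on 6 or more of the 12 arrays and left 11413 of 25697 probes, and a gene was read from its probe of highest mean, giving 8035 genes. Gene names came from GEO's platform annotation, which gives 1 symbol to 23978 probes and no single symbol to 1719. Groups were compared with lmFit and eBayes and Benjamini-Hochberg adjustment over all genes; exact permutation tests were two-sided over 924 splits, with a smallest p of 0.00216. The script was tested on simulated data. Alternatives covered background, scaling, filter, probe choice, weights, number range, muscle signal and single arrays.

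The members and lists were chosen with earlier results of these data known. The text names all members, Sirt1, up to 3 genes of smallest p per direction of a pathway list, the 2 genes of highest signal of a marker list and the 2 genes most like each member. Promoter sequences are from RefSeq (GRCm38.p6).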

Additional observations from a re-analysis of the deposited data

Results flagged for a closer look

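The Mdm2 signal of SIRT1tg 1 was 8.95, apart from the other 5 SIRT1tg arrays at 8.24 to 8.39. The gap took up 0.785 of the range of the group, against a critical value of 0.625 for 6 samples (Dixon). It was the 1 such value among 16 groups examined (the 7 member genes and Sirt1 in each genotype), and chance gives about 1 in 20.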

How the results depend on the processing

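None of the 7 measured members passed under the 18 other settings or with any of 12 arrays left out; the lowest adjusted p was 0.0758 (Sesn1 without WT 1, limma). The count of all genes past the threshold, 12, was 163 with array weights, 24 with a robust trended prior, 84 with the number range as a block, 1 in the low and 4 in the high range alone, 63 with the muscle covariate and 1 without the 5 arrays whose muscle score exceeded the mean; the last and the single ranges hold fewer arrays, and for the rest the cause was not tested. Leaving out single arrays gave 3 to 151 genes, the highest without WT 1. The members' median of 0.09 was -0.03 over the 12 detected probes, -0.15 in the high range alone and -0.01 to 0.17 with single arrays left out. Signs turned for Ccng1 in the low range alone (0.20) and with the 5 muscle-rich arrays left out (0.12), and for Foxo1 in the high range alone (-0.15). With single arrays left out Ccng1 ran from -0.086 to 0.024, Mdm2 from -0.013 to 0.17, Bcl6 from 0.11 to 0.42 and Sesn2 from 0.15 to 0.34. Gadd45a ran from -0.70 (processed values) to -0.15 (no background correction) and kept its sign in all of them, as did Sesn1 (-0.52 to -0.21). With the replicate number of the labels as a block on the processed values, 9 genes and 0 members passed; Klf4 was past the threshold there (0.95, adjusted p = 0.0328), and Ccng2 (0.152) and Sgk1 (0.102) were not; same-numbered samples correlated at -0.13 to 0.50 and 3 of 6 WT samples correlated best with their own number, so the numbers were not taken as pairs.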
